A study of Mus musculus with 2 samples.

Results

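The interferon-inducible GTPases described here were 10 of the 32285 genes in the count matrices: the guanylate-binding proteins Gbp2, Gbp3, Gbp4, Gbp5, Gbp6 and Gbp7 and the immunity-related GTPases Iigp1, Igtp, Irgm1 and Irgm2. They were taken by symbol, and the symbols had been chosen from the UMI counts and shares of positive cells by cell type in these same libraries. The difference between the libraries is therefore a description and supports nothing. The study holds 2 droplet libraries, LYZKL and WTKL, of cells sorted as CD4 and CD8 positive from mouse lung tumours 8 weeks after adenoviral Cre was given through the nose. In LYZKL the host received bone marrow carrying Tmem173fl/fl and Lyz2-Cre, which drives deletion in myeloid cells, and in WTKL the marrow carried Tmem173fl/fl alone. Tmem173 codes for STING, the adaptor of cytosolic DNA sensing. The hosts of both libraries were KrasLSL-G12D/+ Lkb1fl/fl mice, whose airway cells form tumours once Cre is delivered. Tamoxifen is listed among the treatments of WTKL but is missing from those of LYZKL. How many mice were pooled in a library is not given in the sources used here.

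Interferon gamma acts through JAK kinases on genes with GAS elements and induces the transcription factor IRF1, whereas type I interferon acts mainly at ISRE elements, which IRF proteins also bind. Both routes induce the guanylate-binding proteins (GBPs) and the immunity-related GTPases (IRGs), large GTPases that coat the vacuoles of intracellular pathogens and, for several GBPs, promote inflammasome activity. The IRGs Igtp, Irgm1 and Irgm2 stay on host membranes and regulate the effector IRGs such as Iigp1, and the machinery that conjugates ATG8 proteins to membranes is needed for this targeting in mouse cells.

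A library stands for each group, so no test between groups was possible and no p-value is given. Every bracketed interval is a 95% interval of counting error and does not cover the spread between mice. After filtering, 13451 barcodes remained in LYZKL and 12003 in WTKL, with a median of 5327 and 4840 UMIs. The labels state 7202 cells for LYZKL and 6609 for WTKL, fewer than the barcodes in the matrices. Cells were assigned by marker UMIs: regulatory T (Treg) cells by Foxp3, conventional CD4 cells by Cd4, CD8 cells by Cd8b1 or Cd8a, and B cells, neutrophils and macrophages or monocytes by their lineage genes. Although the sort label says T cells, neutrophils made up 10.6% of LYZKL and 9.31% of WTKL barcodes, B cells 2.63% and 4.04%, and macrophages or monocytes 2.24% and 1.83%. Tmem173 itself had 22 UMIs in LYZKL neutrophils and 80 in WTKL neutrophils, 3.67 against 19.1 CPM (UMIs of a gene scaled to the total UMIs of the gated cells). In macrophages or monocytes it stood at 36.1 CPM in LYZKL and 40.7 CPM in WTKL, a difference within counting error. Tmem173 was higher in LYZKL Treg cells, at 79.98 against 29.7 CPM, in conventional CD4 cells, at 46.7 against 23.0 CPM, and in B cells, at 33.7 against 20.99 CPM. Other T lineage cells had 48.0 against 28.2 CPM and CD8 cells 33.3 against 36.1 CPM. The floxed exons are not given in the sources used here, so these 3' counts do not check the deletion.

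RefSeq promoter windows (GRCm38.p6, 250 bases before to 50 bases after the start) were used for 7 members: Gbp2, Gbp3, Gbp5, Gbp7, Igtp, Irgm1 and Irgm2. Each was searched on both strands for the letters TTCNNNGAA, a form of the GAS element, and for GAAA followed by any 2 bases and GAAA, a form of the ISRE. The 180 bases before the start are shown for 6 members because they hold the matches and show how their arrangement differs between the GBPs and the IRGs. Letters in capitals mark the matches, all others are in lower case, and each sequence runs 5′ to 3′ along its gene.
Gbp2, chr3:142620483-142620662, plus strand: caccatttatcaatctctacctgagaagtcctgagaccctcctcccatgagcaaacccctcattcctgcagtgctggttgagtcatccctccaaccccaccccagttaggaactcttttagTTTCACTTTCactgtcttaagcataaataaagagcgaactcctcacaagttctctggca
Gbp5, chr3:142496754-142496933, plus strand: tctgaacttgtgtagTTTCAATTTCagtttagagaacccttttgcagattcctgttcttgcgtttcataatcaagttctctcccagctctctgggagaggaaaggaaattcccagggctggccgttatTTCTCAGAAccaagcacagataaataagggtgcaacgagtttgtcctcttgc
Gbp7, chr3:142530156-142530335, plus strand: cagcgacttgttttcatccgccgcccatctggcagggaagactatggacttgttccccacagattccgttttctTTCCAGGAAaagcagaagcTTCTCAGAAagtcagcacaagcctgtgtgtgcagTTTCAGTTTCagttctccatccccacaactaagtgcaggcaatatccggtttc
Irgm1, chr11:48871421-48871600, minus strand: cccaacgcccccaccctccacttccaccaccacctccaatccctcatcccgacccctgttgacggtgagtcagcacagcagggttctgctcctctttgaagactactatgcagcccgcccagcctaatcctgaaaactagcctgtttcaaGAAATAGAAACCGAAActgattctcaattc
Igtp, chr11:58199376-58199555, plus strand: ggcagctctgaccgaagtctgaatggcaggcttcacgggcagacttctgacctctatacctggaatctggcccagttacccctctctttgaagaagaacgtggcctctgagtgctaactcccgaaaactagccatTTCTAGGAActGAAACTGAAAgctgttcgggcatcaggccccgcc
Irgm2, chr11:58214797-58214976, plus strand: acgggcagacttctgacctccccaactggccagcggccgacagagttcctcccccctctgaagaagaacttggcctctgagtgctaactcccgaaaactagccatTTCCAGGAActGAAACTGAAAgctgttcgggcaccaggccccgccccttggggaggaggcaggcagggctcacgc

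Gbp4 and Gbp6 had no entry, and Iigp1 was left out because windows on its chromosome were not used. The 7 members used hold 8 windows, since Gbp3 has 2. An ISRE-type match stood in 7 of the 8 windows, all but the second window of Gbp3, against 3.45% of 32544 mouse promoter windows of the same length. Those of Gbp2, Gbp3, Gbp5 and Gbp7 read on the strand opposite to the gene and those of Igtp, Irgm1 and Irgm2 on the strand of the gene. A GAS-type match stood in 4 of the 8 windows, those of Gbp5, Gbp7, Igtp and Irgm2, against 8.33% of all windows, and both kinds stood together in 0.455% of all windows. A further GAS-type match of Gbp5 lies upstream of the stretch shown. In Gbp3 and in Irgm1 the 2 ISRE-type matches overlap. Igtp and Irgm2 carry the same arrangement, with the ISRE-type match starting 11 bases after the start of the GAS-type match. This spacing was singled out after the matches had been seen. It occurred in 5 of the 32544 windows, those of Igtp, Irgm2, Tgtp1, Tgtp2 and Gm12185. A match is a run of letters and is not evidence of a bound site.

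**Figure D1:**
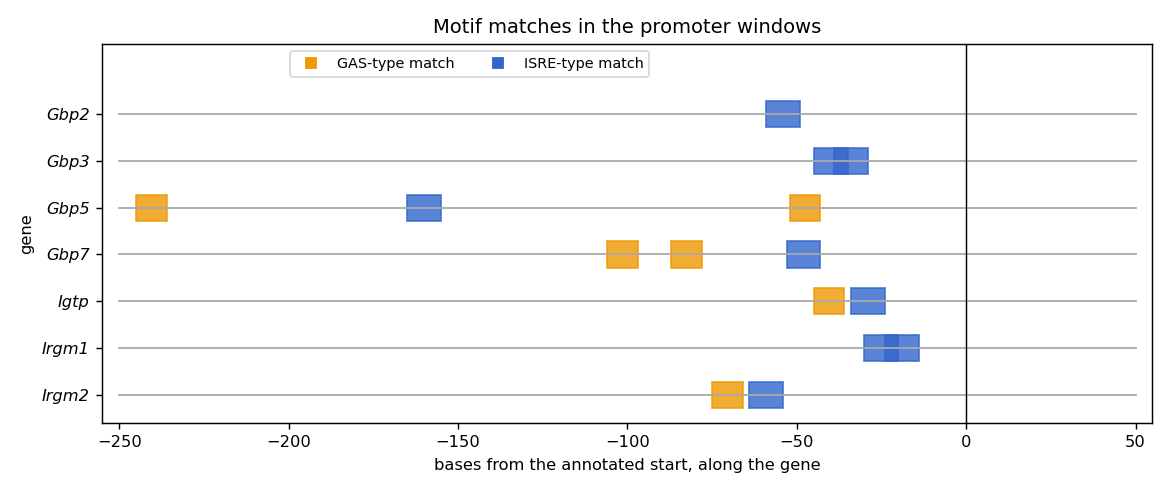
Positions of GAS-type (orange) and ISRE-type (blue) matches in bases from the annotated start, along each gene, for the 7 members used. Igtp and Irgm2 show the pair 11 bases apart, and the matches of Gbp2, Gbp3, Irgm1 and Igtp all start within the last 60 bases before the start.

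The members lie in 4 places of the mouse genome (GRCm38). Gbp5, Gbp7, Gbp3 and Gbp2 form a run of plus-strand genes on chromosome 3 between 142493978 and 142638008, a span of 144 kb. Gbp4 and Gbp6 are on the minus strand of chromosome 5, between 105115767 and 105293698. Igtp (chromosome 11, 58199556 to 58207591) lies inside the annotated extent of Irgm2 (58199618 to 58222782) except for its first bases, on the same strand, while Irgm1 is on chromosome 11 from 48861968 to 48871683. Iigp1 is on chromosome 18 from 60376027 to 60392634. All 10 are annotated as protein coding. Of 91-base windows in the last 500 bases of their annotated transcripts, where 3' reads fall, 65.4% were shared with Gbp10 or Gm43302 for Gbp6, 8.06% with other GBPs of chromosome 5 for Gbp4 and 0.375% with Gbp7 for Gbp3. No window was shared for the other 7, so the counts of Gbp6, and to a lesser degree Gbp4, are uncertain between copies.

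The level of the 10 genes together depended on the cell type, with 8.13-fold between the highest and the lowest gate in LYZKL. Their summed UMIs were 2665 CPM in LYZKL and 1978 CPM in WTKL neutrophils, and 328 CPM in LYZKL and 198 CPM in WTKL B cells, the highest and the lowest gates in both libraries. Macrophages or monocytes followed neutrophils at 1590.5 and 1253 CPM, and Treg cells came next at 1543.5 and 945 CPM. In LYZKL the Treg and macrophage intervals overlapped, and in WTKL no neighbours in the order did. CD8 cells lay below conventional CD4 cells in LYZKL (548 against 719 CPM) and above them in WTKL (697 against 473 CPM). Gbp2 alone made up 43.8% of the sum in LYZKL and 44.6% in WTKL neutrophils, against 12.3% and 11.3% in Treg cells. CPM is a share of the gate's UMIs and not a count per cell. Ribosomal protein genes held 5.22% of UMIs in LYZKL and 5.11% in WTKL neutrophils, against 20.4% and 19.4% in Treg cells.

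Single members had their own order of cell types. Gbp2, which restricts vacuolar pathogens and aids inflammasome activation, stood at 1168.5 CPM in LYZKL and 881 CPM in WTKL neutrophils, at 561 and 459.9 CPM in macrophages or monocytes and at 28.1 and 22.7 CPM in B cells. Gbp5, which promotes NLRP3 inflammasome assembly in mouse macrophages, had the same 2 myeloid gates on top, at 476 CPM in LYZKL and 333 CPM in WTKL neutrophils and 229 and 180.3 CPM in macrophages or monocytes. Both genes were thus highest in neutrophils in each library. Iigp1, an effector IRG, was instead highest in Treg cells, at 213 CPM in LYZKL and 103 CPM in WTKL, and then in macrophages or monocytes, at 128 and 77.9 CPM. In neutrophils it had 20.7 CPM in LYZKL and 13.4 CPM in WTKL, and in B cells 8 and 9 UMIs. Gbp3 was also highest in Treg cells, at 184 CPM in LYZKL and 108 CPM in WTKL, although in WTKL the macrophage interval overlapped that of Treg cells. Igtp, a regulatory IRG needed for resistance of mice to Toxoplasma, led in Treg cells in LYZKL (229 CPM) and in neutrophils in WTKL (157 CPM), where the Treg interval overlapped. Gbp7, Irgm1 and Irgm2 were highest in neutrophils in both libraries.

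Gbp4, which with Gbp6 forms the pair on chromosome 5, lay between 75.3 and 104 CPM in the 4 T cell gates of LYZKL and between 67.9 and 81.0 CPM in those of WTKL. Gbp6 lay between 67.5 CPM in CD8 cells and 122 CPM in Treg cells of LYZKL, and between 71.0 and 81.3 CPM in the T cell gates of WTKL. It had 122 CPM in both Treg cells and macrophages or monocytes of LYZKL, and 74.1 and 76.8 CPM in the same gates of WTKL. The B cell gate was lowest for 7 members in LYZKL, all but Gbp3, Irgm1 and Irgm2, and for 9 in WTKL, all but Irgm1. Over all kept barcodes the sum was 1084 CPM in LYZKL and 832 CPM in WTKL (0.38, 0.37 to 0.40). Of the 10, only Iigp1 was at least 1.5-fold higher there, where 1.35% of genes were, and none was at least 1.5-fold lower, where 1.28% were.

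**Figure D2:**
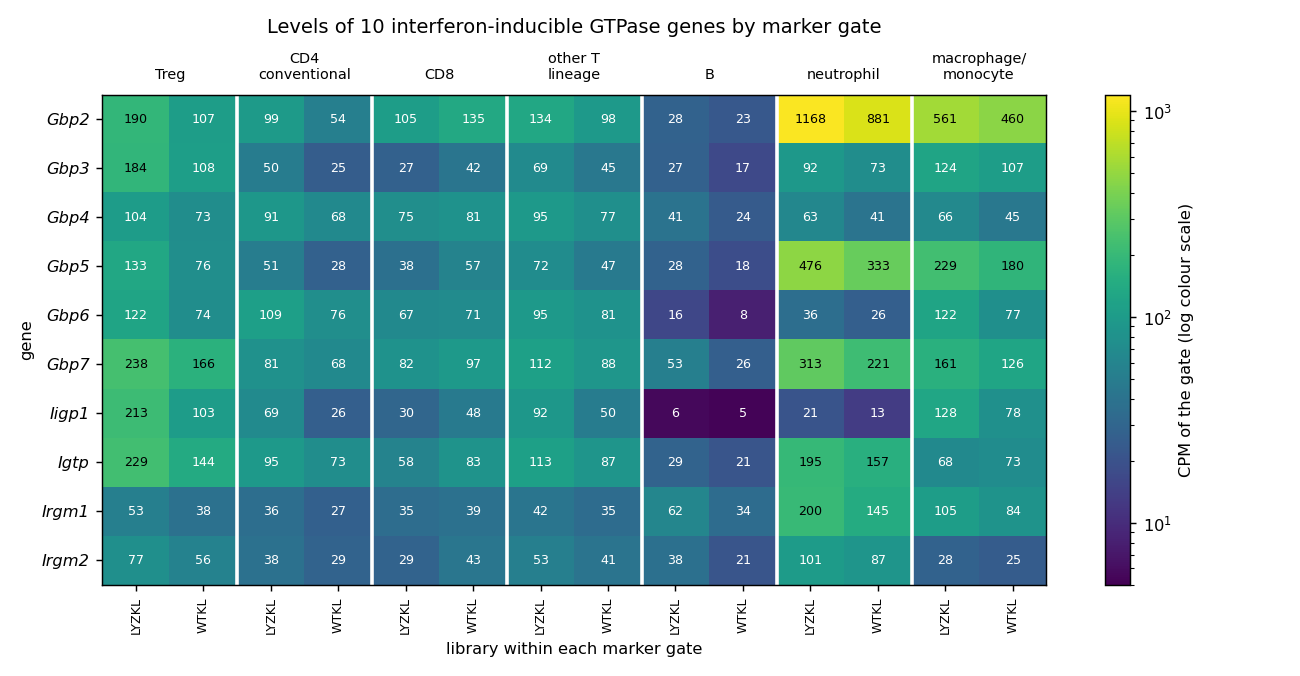
Level of each member (CPM of the gate, log colour scale) in 7 gates, with LYZKL to the left of WTKL in each pair. Gbp2 and Gbp5 peak in neutrophils and macrophages or monocytes, Iigp1 in Treg cells, and all but the CD8 pairs are brighter in LYZKL for nearly every gene.

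In Treg cells all 10 members were higher in LYZKL. The summed level was 1543.5 CPM in 625 LYZKL cells and 945 CPM in 542 WTKL cells, a log2 ratio of 0.71 (0.65 to 0.77). Iigp1 had the largest log2 ratio, 1.05 (0.87 to 1.23), followed by Gbp2 at 190.1 CPM in LYZKL and 107 CPM in WTKL (0.83, 0.66 to 1.01). Gbp5 stood at 133 against 75.6 CPM (0.81) and Gbp3 at 184 against 108 CPM (0.77). The smallest ratios were those of Irgm2, which restrains caspase-11 inflammasome activity in mouse macrophages, at 77.2 against 56.4 CPM (0.45, 0.20 to 0.71), and of Irgm1 at 53.0 against 38.4 CPM (0.46, 0.16 to 0.78). At least 1.5-fold higher were 6 members, where 3.38% of the 8346 genes that passed a filter on low values in this gate were, and none was at least 1.5-fold lower, where 4.23% were. A gene passed with 50 UMIs in the libraries together and 10 CPM in 1 of them. Treg cells without a UMI of the myeloid genes S100a8, S100a9, Lyz2, Trem1 or Retnlg, 189 in LYZKL and 142 in WTKL, gave a log2 ratio of 1.13 for the sum.

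In conventional CD4 cells the 10 were again all higher in LYZKL, with a sum of 719 CPM in 3651 LYZKL cells and 473 CPM in 3902 WTKL cells (0.60, 0.57 to 0.64). Iigp1 stood out at 68.7 CPM in LYZKL and 26.3 CPM in WTKL, a log2 ratio of 1.39 (1.25 to 1.52). Gbp3 had 49.9 against 25.4 CPM (0.98, 0.83 to 1.12), Gbp2 99.4 against 53.6 CPM (0.89) and Gbp5 50.6 against 27.6 CPM (0.87). These 4 were the members at least 1.5-fold higher, against a background of 2.17% of genes, and none was as much lower, against 1.84%. Gbp7, linked in mouse phagocytes to NADPH oxidase assembly, differed least, at 80.7 CPM in LYZKL and 67.8 CPM in WTKL (0.25, 0.16 to 0.35). The T-lineage cells that no subtype gate took had a sum of 878 CPM in LYZKL and 650 CPM in WTKL (0.43, 0.39 to 0.48), with 3 members at least 1.5-fold higher against 1.79% of genes and none lower against 1.22%.

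CD8 cells went the other way. The summed level was 548 CPM in 2865 LYZKL cells and 697 CPM in 2058 WTKL cells, a log2 ratio of -0.35 (-0.39 to -0.30), and each of the 10 was lower in LYZKL, although Irgm1 had 0.03 with subsets weighted as in WTKL and 0.03 in cells free of myeloid marker UMIs. Iigp1 had 30.5 CPM in LYZKL and 47.8 CPM in WTKL (-0.65, -0.82 to -0.48), Gbp3 27.3 against 42.4 CPM (-0.63) and Gbp5 38.04 against 57.5 CPM (-0.60). Irgm2 stood at 28.8 against 43.3 CPM (-0.59) and Igtp at 58.2 against 83.4 CPM (-0.52). Of these 5, all but Igtp were at least 1.5-fold lower, where 2.51% of genes were, and no member was as much higher, where 5.75% were. With subsets weighted as in WTKL only Gbp3 (-0.64) of these 5 stayed past 1.5-fold, while Gbp5 had -0.47, Igtp -0.33, Iigp1 -0.18 and Irgm2 -0.07. The intervals of Gbp4, Gbp6 and Irgm1 held 0, as Gbp4 with 75.3 CPM in LYZKL and 81.0 CPM in WTKL shows. The median log2 ratio of all 8294 genes in this gate was 0.10 and TMM scaling moved the ratios by -0.11, which makes the sum -0.46 relative to that shift. LYZKL CD8 cells were shallower, with a median of 4718 UMIs against 5808 in WTKL, while the other 6 gates described here were deeper in LYZKL.

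B cells carried few UMIs of the members, 467 in 354 LYZKL cells and 339 in 485 WTKL cells, or 328 against 198 CPM (0.73, 0.53 to 0.94). Gbp7 had 53.4 CPM in LYZKL and 26.2 CPM in WTKL (1.02, 0.47 to 1.59), Irgm1 61.8 against 34.4 CPM (0.84), Irgm2 37.9 against 21.0 CPM (0.85) and Gbp4 40.7 against 23.9 CPM (0.77). The intervals of the other 6 held 0, and 3 of those changed sign under an alternative: Gbp2 (-0.24 with 1 more lineage marker and -0.29 with Scrublet removal), Gbp3 (-0.08 in myeloid-free cells) and Iigp1 (-0.08 as a per-cell mean and -2.78 in myeloid-free cells). Iigp1 and Gbp6 fell below the filter on low values, and of the 8 that passed, 6 were at least 1.5-fold higher against 4.06% of genes and none lower against 4.03%.

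In neutrophils, one of the lineages in which Lyz2-Cre acts, all 10 were higher in LYZKL, the sum at 2665 CPM in 1424 LYZKL cells and 1978 CPM in 1117 WTKL cells (0.43, 0.39 to 0.47). Gbp5 had a log2 ratio of 0.52 (0.42 to 0.61) and Gbp7, at 313 against 221 CPM, one of 0.51. Irgm1, whose loss leaves mice susceptible to mycobacteria, stood at 200.2 CPM in LYZKL and 145 CPM in WTKL (0.46). Only Gbp4, at 63.4 against 40.8 CPM, and Iigp1 were at least 1.5-fold higher, while 4.66% of all genes were, and no member was as much lower, while 5.59% were. Gbp2 differed by 0.41 (0.35 to 0.46) and Irgm2, at 101 against 87.0 CPM, by 0.21 (0.02 to 0.40).

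Of the gates with a higher sum in LYZKL, macrophages or monocytes had the smallest ratio, 1590.5 CPM in 301 LYZKL cells and 1253 CPM in 220 WTKL cells (0.34, 0.28 to 0.41). Iigp1 was at 128 against 77.9 CPM (0.72, 0.48 to 0.97) and Gbp6 at 122 against 76.8 CPM (0.67, 0.43 to 0.92), the 2 that were at least 1.5-fold higher, where 3.94% of genes were, and none was as much lower, where 7.65% were. In Saa3 cells, 65.8% of the gate in LYZKL and 31.8% in WTKL, Iigp1 had 0.06 (-0.23 to 0.35) and Gbp6 0.27 (-0.04 to 0.58). The smaller subsets each had under 50 cells in at least 1 library. Iigp1 had 0.92 (0.31 to 1.55) in Ear2 or Fabp4 cells and 1.27 (0.20 to 2.32) in the rest. In Vcan or Ccl17 cells it had 0.79 (-0.43 to 2.03) on 14 and 12 UMIs. Gbp6 had 0.94 (0.12 to 1.77) in Vcan or Ccl17 cells. Its intervals held 0 in Ear2 or Fabp4 cells (0.15, -0.52 to 0.82) and in the rest (0.72, -0.35 to 1.74). Gbp2 differed by 0.29 (0.18 to 0.39) over the gate. Igtp, with 67.6 CPM in LYZKL and 72.5 CPM in WTKL, had a log2 ratio of -0.10 (-0.38 to 0.18), which was 0.08 with 1 more lineage marker and 0.06 as a per-cell mean, and the intervals of Gbp3 and Irgm2 held 0 too.

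**Figure D3:**
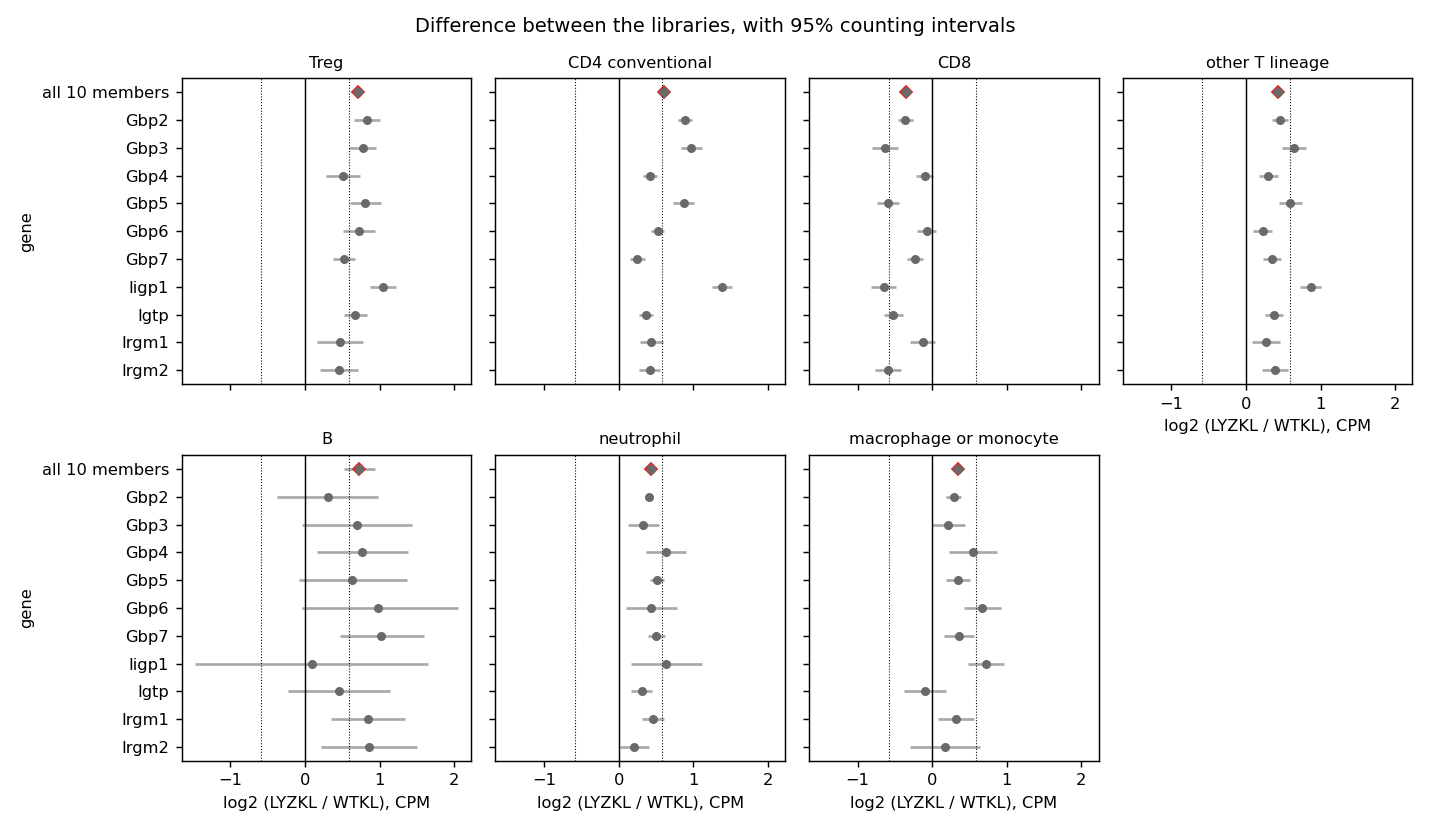
Log2 ratio of CPM, LYZKL over WTKL, for the sum (red diamonds) and each member (points) in 7 gates, with 95% counting intervals as bars, a solid line at 0 and dotted lines at 1.5-fold. All points lie above 0 in Treg, conventional CD4, other T, B and neutrophil gates and all lie below 0 in CD8 cells, with the widest bars in B cells, where Gbp2, Gbp3 and Iigp1 changed sign under some alternatives, as Irgm1 did in CD8 cells.

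UMIs of 11 neutrophil marker genes, Il1r2, G0s2 and Hdc among them, were found in the lymphocyte gates. They summed to 416 CPM in LYZKL and 390 CPM in WTKL Treg cells. Conventional CD4 cells had 402 and 350 CPM, CD8 cells 461 and 328 CPM and B cells 228 and 327 CPM. Neutrophils had 92936 and 89999 CPM. None of the 11 was at 0 in these gates. Whether these UMIs came from neutrophils or from the gated cells' own expression was not tested. The 13 macrophage markers summed to 528 CPM in LYZKL and 495 CPM in WTKL Treg cells and to 891 and 1041 CPM in CD8 cells, and the part of macrophage RNA in the results was not tested. The neutrophil markers' level in a lymphocyte gate, as a share of that in neutrophils, was used to scale neutrophil RNA. This counts every UMI of these markers as coming from neutrophils. Lymphocyte gates had lost barcodes that also met the neutrophil gate on some of these markers, so the gating holds this share down. So scaled, neutrophil RNA would hold 5.23 of the 190.1 CPM of Gbp2 in LYZKL Treg cells and 3.82 of the 107 CPM in WTKL. In CD8 cells it would hold 5.80 of 105 CPM in LYZKL and 3.21 of 135 CPM in WTKL. Its largest share was for Gbp2 in B cells, 10.2% of the LYZKL and 14.1% of the WTKL level. For Iigp1 it was below 1% in every lymphocyte gate. Iigp1 had only 20.7 CPM in LYZKL and 13.4 CPM in WTKL neutrophils, which keeps this share low. Macrophage RNA, in which Iigp1 had 128 and 77.9 CPM, was not scaled. What part of the lymphocyte levels came from other cells was not tested. S100a8, a neutrophil gene, had a UMI in 38.4% of LYZKL and 39.5% of WTKL Treg cells, and in 13.1% and 17.9% after each cell was thinned to 2000 UMIs.

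The members were also counted cell by cell after thinning, which left out cells with under 2000 UMIs (12 LYZKL and 11 WTKL Treg cells, 122 and 42 CD8 cells). At least 3 of the 10 genes were found in 42.6% (38.6 to 46.6) of LYZKL and 16.4% (13.3 to 19.8) of WTKL Treg cells. Conventional CD4 cells had 13.4% and 6.84%, and neutrophils 40.5% (37.9 to 43.2) and 28.1% (25.3 to 30.9). In CD8 cells the share was 6.96% (6.04 to 7.98) in LYZKL and 12.5% (11.1 to 14.02) in WTKL. Macrophages or monocytes, at 32.2% (26.9 to 37.9) and 26.9% (21.1 to 33.3), had overlapping intervals, and so had B cells at 3.05% and 2.03%. At least 5 genes were found in 15.3% of LYZKL and 4.14% of WTKL Treg cells, and in none of 328 LYZKL and 444 WTKL B cells, which allows shares of up to 0.915% and 0.676% by the limit of 3 counts, or 1.12% and 0.827% by the exact binomial interval.

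Iigp1 was found in 24.0% of LYZKL and 9.79% of WTKL Treg cells after thinning (41.9% and 16.97% before it), and in 0.61% and 0.90% of B cells, whose median depth was 3385 and 3054 UMIs. In neutrophils, where few cells had it, the shares were 2.33% and 1.17%. Gbp2 was found in 54.3% of LYZKL and 39.4% of WTKL neutrophils after thinning (61.9% and 45.8% before it) and in 4.27% and 4.50% of B cells. The thinned share of Gbp2 in CD8 cells was 11.8% in LYZKL and 14.6% in WTKL.

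**Figure D4:**
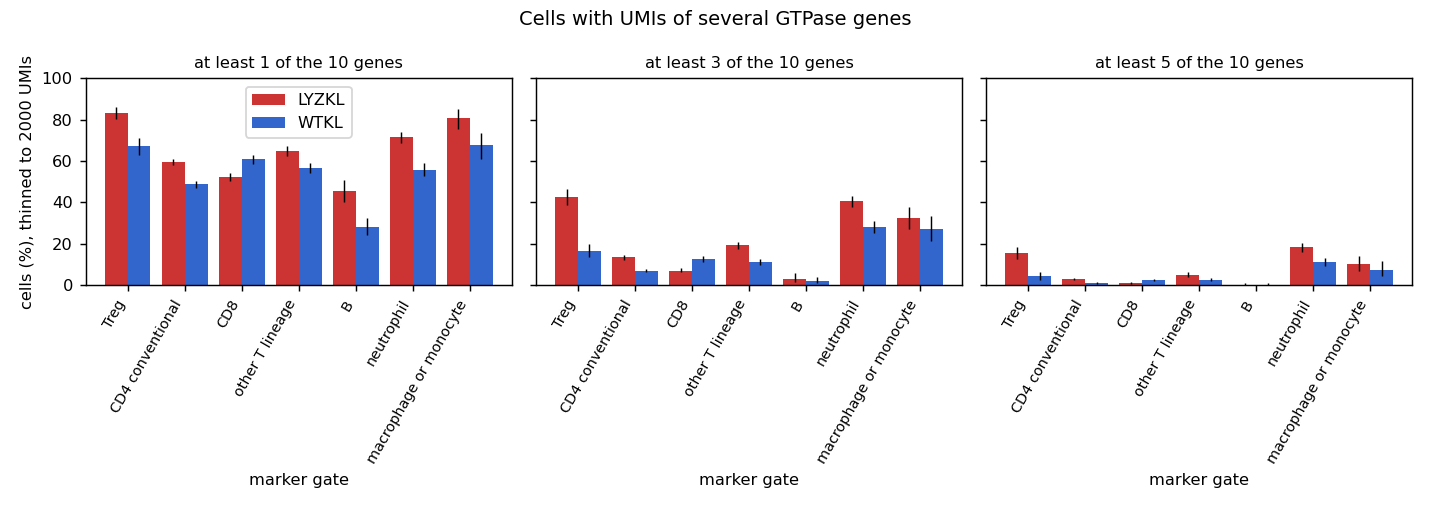
Percent of cells, thinned to 2000 UMIs, with at least 1, 3 or 5 of the 10 genes, LYZKL in red left of WTKL in blue, with 95% exact binomial intervals. At least 3 genes were found in 42.6% of LYZKL and 16.4% of WTKL Treg cells, while CD8 cells had 6.96% and 12.5%.

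Within each gate the cells were divided further by genes that are not members. Subsets were taken in a fixed order, each from the cells that earlier ones had left. At least 2 UMIs were needed for Ccl3, for Saa3, for Ear2 and Fabp4 together and for Vcan and Ccl17 together. Treg cells with Il1rl1 or Areg, the ST2 or amphiregulin type, had a sum of 1615.5 CPM in LYZKL and 1001 CPM in WTKL (0.69, 0.62 to 0.76), and those of the rest with Ccr7 or Lef1 had 1368 against 787 CPM (0.80, 0.64 to 0.96). The intervals of these ratios overlapped. Gbp2 had 178 against 118 CPM (0.59, 0.38 to 0.79) in the Il1rl1 or Areg cells and 254 against 93.0 CPM (1.45, 1.02 to 1.91) in the Ccr7 or Lef1 cells. Iigp1 had 227 against 109 CPM (1.06) in the Il1rl1 or Areg cells and 165 against 105 CPM (0.64) in the Ccr7 or Lef1 cells. Whether these ratios differ was not tested.

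Among conventional CD4 cells the naive-type subset, with at least 2 of Ccr7, Lef1 and Igfbp4, had the largest ratio of the sum, 825 CPM in 537 LYZKL cells and 396 CPM in 606 WTKL cells (1.06, 0.96 to 1.16). All 10 members had intervals above 0 there, with Iigp1 at 109 against 34.2 CPM (1.68), Gbp2 at 136 against 45.4 CPM (1.59) and Gbp3 at 30.6 against 10.5 CPM (1.54). The Il17a, Il17f or Il22 subset, taken first, had 698 against 487 CPM (0.52, 0.47 to 0.57). The Ifng, Tbx21 or Cxcr3 subset, taken before the naive-type cells, had 653 against 475 CPM (0.46, 0.37 to 0.55). Naive-type cells had the highest sum of the 4 subsets in LYZKL, where the remaining cells overlapped them at 803 CPM, and the lowest in WTKL.

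CD8 subsets differed in size between the libraries. Naive-type cells, taken first, were 10.9% of LYZKL and 30.2% of WTKL CD8 cells. Cells with Xcl1 or Itga1 among those left were 54.6% and 31.6% of the gate, and Gzmk or Eomes cells were taken next. The sum was lower in LYZKL in each subset. It was 713 against 799.97 CPM in naive-type cells (-0.17, -0.25 to -0.09) and 509.6 against 622 CPM in Xcl1 or Itga1 cells (-0.29, -0.36 to -0.22). Gzmk or Eomes cells had 537 against 687 CPM (-0.35, -0.48 to -0.23) and the rest 531 against 634 CPM (-0.26, -0.36 to -0.16). With the subsets of both libraries weighted by their share of the WTKL gate's UMIs, an alternative chosen after seeing the data, the ratio of the sum was -0.24 in place of -0.35. Iigp1 had -0.06 (-0.31 to 0.18) in naive-type cells, at 81.9 CPM in LYZKL and 85.6 CPM in WTKL, and -1.19 (-1.91 to -0.51) in Gzmk or Eomes cells on 24 and 77 UMIs. Weighted as in WTKL its CD8 ratio was -0.18 in place of -0.65, and that of Irgm2 was -0.07 in place of -0.59. Gbp3 lay between -0.38 and -0.85 in the 4 subsets, with an interval that held 0 in naive-type cells.

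Neutrophils with Ccl3 or Hcar2, 83.7% of the gate in LYZKL and 81.9% in WTKL, had a sum of 2979 CPM in LYZKL and 2197 CPM in WTKL (0.44, 0.40 to 0.48), and those with neither these nor the immature markers Ngp or Camp 1486 against 1069 CPM (0.47, 0.32 to 0.63). The Ngp or Camp cells, 74 in LYZKL and 32 in WTKL, had 394 against 424 CPM, with an interval that held 0 (-0.11, -0.51 to 0.31). Of macrophages or monocytes, Ear2 or Fabp4 cells and Vcan or Ccl17 cells were taken out first. Those left with Saa3 were 65.8% of the gate in LYZKL (198 cells) and 31.8% in WTKL (70 cells). Their sum was 1751 against 1632.5 CPM (0.10, 0.02 to 0.19). There 8 of the 10 intervals held 0. Iigp1, the member with the largest ratio in the whole gate, had 151 CPM in LYZKL and 145 CPM in WTKL (0.06, -0.23 to 0.35) in Saa3 cells. With the WTKL subset weights the ratio of the sum over the gate was 0.21 in place of 0.34.

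**Figure D5:**
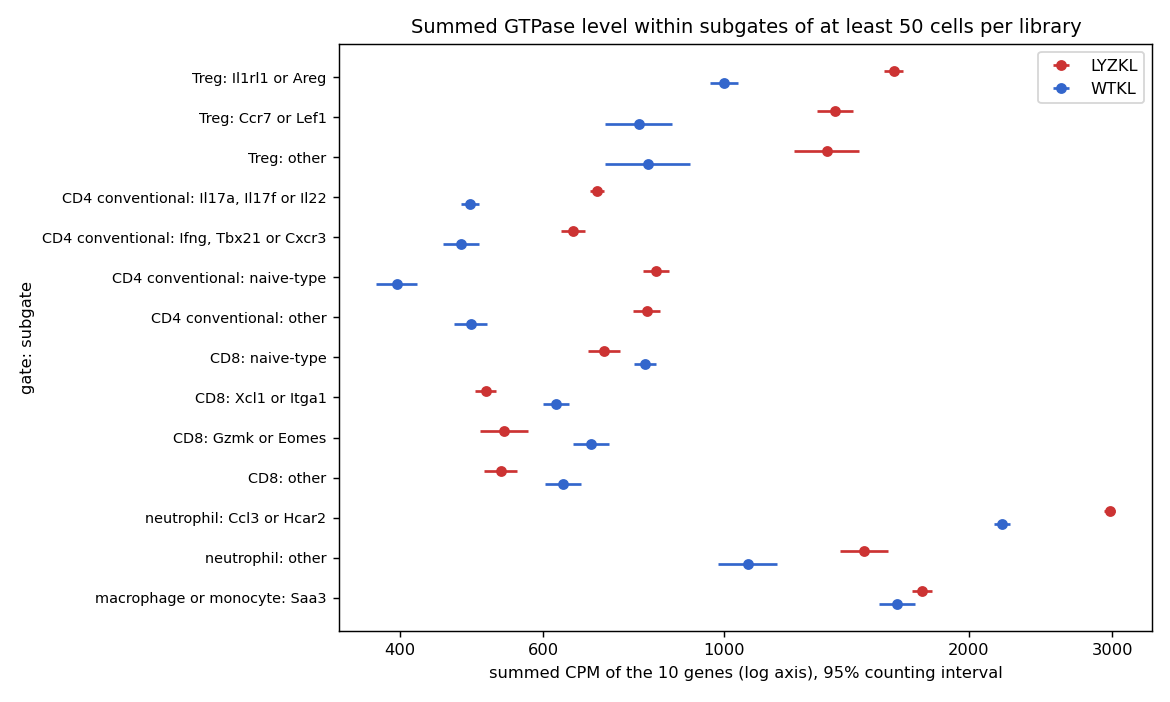
Summed CPM of the 10 genes (log axis, 95% counting intervals) in subgates of at least 50 cells in each library, LYZKL in red above WTKL in blue. Naive-type CD4 cells show the widest gap, all 4 CD8 subsets lie lower in LYZKL, and Saa3 macrophages nearly meet.

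Other genes of the family and of the interferon pathways were set beside the members in each gate. Those at least 1.5-fold apart were counted among those that passed the filter. Of all genes, 3.38% were that much higher and 4.23% lower in Treg cells. The shares were 2.17% and 1.84% in conventional CD4 cells, 5.75% and 2.51% in CD8 cells and 3.94% and 7.65% in macrophages or monocytes. Of the 8 further GTPase genes in the matrix, 7 passed in Treg cells, with 4 higher and none lower in LYZKL and a median log2 ratio of 0.61, against -0.02 for all genes. Ifi47, an IRG, stood at 259 CPM in LYZKL and 193 CPM in WTKL Treg cells (0.43), Gbp9 at 53.4 against 32.7 CPM (0.71) and Tgtp2, an effector IRG, at 41.1 against 27.0 CPM (0.61). Gbp8 was level at 36.7 against 36.6 CPM. In conventional CD4 cells 1 of 6 was higher and none lower (median 0.20), and 5 of the 6 lay above 0. There Ifi47 had 145 CPM in LYZKL and 142 CPM in WTKL (0.03, -0.04 to 0.10). Gbp8 had 41.6 against 45.2 CPM (-0.12). In CD8 cells 2 of 6 were lower and none higher (median -0.37), with Ifi47 at 114 against 206 CPM (-0.86, -0.94 to -0.77). In macrophages or monocytes none of 6 passed 1.5-fold, and Ifi47 had 194 CPM in LYZKL and 229 CPM in WTKL (-0.24). Near-identical copies make Tgtp1, Tgtp2 and Gvin1 uncertain, since 73.8% of the windows of Tgtp1 and 100% of those of Tgtp2 and Gvin1 occur in another gene.

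On the interferon gamma pathway list Irf1, a transcription factor, had 417 CPM in LYZKL and 356 CPM in WTKL Treg cells (0.23) and 257 against 377 CPM in CD8 cells (-0.55, -0.61 to -0.49). Within CD8 subsets the ratio of Irf1 lay between -0.51 in Gzmk or Eomes cells and -0.12 in naive-type cells, which were 10.9% of the gate in LYZKL and 30.2% in WTKL, and each of the 4 had a smaller difference than the gate. In macrophages or monocytes Irf1 was lower in LYZKL, at 333 against 406 CPM (-0.28), unlike the sum of the members. There Irf1 had -0.06 (-0.25 to 0.14) in Saa3 cells, 65.8% of the gate in LYZKL and 31.8% in WTKL. It had -0.09 (-0.40 to 0.22) in Ear2 or Fabp4 cells and -0.34 (-0.57 to -0.11) in Vcan or Ccl17 cells. The rest had 0.65 (0.19 to 1.09). Each of these 3 smaller subsets had under 50 cells in at least 1 library. The chemokine Cxcl10 stood at 152 against 114 CPM in Treg cells (0.42), at 72.8 against 89.8 CPM in CD8 cells (-0.30) and at 1658 against 1128 CPM in neutrophils (0.56). Ifng, the ligand, was singled out after its values had been seen. It was higher in LYZKL where the members were lower, in CD8 cells, at 353 CPM in LYZKL and 234 CPM in WTKL (0.59, 0.53 to 0.66), although not in each subset: in Xcl1 or Itga1 cells, 54.6% of the gate in LYZKL and 31.6% in WTKL, it stood at 447 against 475 CPM (-0.09, -0.16 to -0.01). It was also higher in conventional CD4 cells, at 143 against 68.1 CPM (1.07). In Treg cells Ifng was higher too, at 21.8 against 8.10 CPM on 110 and 27 UMIs (1.43, 0.81 to 2.10). Among Treg cells outside the Il1rl1 or Areg and the Ccr7 or Lef1 subsets it was lower, on 1 and 13 UMIs. The receptor chain Ifngr1 was lower in LYZKL Treg cells (737 against 829 CPM, -0.17), CD8 cells (419 against 529.9 CPM, -0.34) and macrophages or monocytes (159.7 against 276 CPM, -0.79). In conventional CD4 cells it was level, at 610 against 604 CPM (0.01). Over the whole list 2 of 17 genes were at least 1.5-fold higher and 1 lower in Treg cells, against 3.38% and 4.23% of genes. In CD8 cells 1 of 18 was higher and 2 lower, against 5.75% and 2.51%.

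Type I interferon response genes showed 4 of 12 higher and none lower in Treg cells (median 0.44). In CD8 cells none was higher and 6 of 14 were lower (median -0.39). In neutrophils 2 of 20 were higher and 1 lower (median 0.29). Of all genes, 3.38% were at least 1.5-fold higher and 4.23% lower in Treg cells. The shares were 5.75% and 2.51% in CD8 cells and 4.66% and 5.59% in neutrophils. Isg15, a ubiquitin-like protein, stood at 83.2 CPM in LYZKL and 56.4 CPM in WTKL Treg cells, at 50.7 against 76.2 CPM in CD8 cells and at 559 against 430.8 CPM in neutrophils. Ifi27l2a went with the members in Treg cells, at 830.2 against 549 CPM, and against them in neutrophils, at 17.9 against 27.4 CPM (-0.62).

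The ATG8 conjugation genes, on which IRG and GBP targeting depends, had median log2 ratios of -0.07 in Treg and -0.01 in conventional CD4 cells. None of 10 passed 1.5-fold there. Of all genes, 3.38% were that much higher and 4.23% lower in Treg cells, and 2.17% and 1.84% in conventional CD4 cells. In CD8 cells 1 of 10 was that much higher and none lower, against 5.75% and 2.51% of genes. Of the 10, 9 lay above 0 there, with a median of 0.16 against 0.10 for all genes. In B cells none of 9 was that much higher and 1 was lower, against 4.06% and 4.03%. Gabarapl2, an ATG8 protein that acts with Irgm2 in mouse macrophages, had 180 CPM in LYZKL and 197 CPM in WTKL Treg cells and 173 against 168 CPM in neutrophils. Of the GBP-linked inflammasome genes, 1 of 5 that passed the filter was at least 1.5-fold lower in LYZKL Treg cells, against 4.23% of genes. In CD8 cells 1 of 6 was higher, against 5.75%, and in B cells 1 of 5, against 4.06%. None passed 1.5-fold in the other 4 gates. Of all genes, 2.17% were that much higher and 1.84% lower in conventional CD4 cells, and 1.79% and 1.22% in other T lineage cells. The shares were 4.66% and 5.59% in neutrophils and 3.94% and 7.65% in macrophages or monocytes. Casp4, which codes for caspase-11, was lower in LYZKL Treg cells, at 52.8 against 84.3 CPM (-0.67, -0.92 to -0.43), and higher in LYZKL conventional CD4 cells, at 86.3 against 72.7 CPM (0.25). Nlrp3, a sensor, was lower in LYZKL neutrophils, at 753 against 966 CPM (-0.36), and higher in LYZKL CD8 cells, at 24.7 against 16.2 CPM (0.61). Aim2, a DNA sensor, was higher in LYZKL CD8 cells, at 123 against 100.3 CPM (0.30).

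The members were compared with each other and with other genes over the 14 gate and library points, whose gates share a library, its depth and its free RNA. Gbp7 had the profile closest to the mean of the other members (Pearson r 0.96), followed by Igtp (0.89) and Gbp3 (0.88). Irgm1 (0.46), Gbp4 (0.50) and Gbp6 (0.55) were the least alike. Among 6987 genes the 10 profiles most like the mean of the members included those of Morrbid (0.94), Mxi1 (0.94), Tap1 (0.93) and Ilrun (0.92), followed by Parp9, Ykt6, Manbal, Sap18 and Pkm (down to 0.91). These are descriptions over 14 points that are not independent.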

How the data were processed

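The deposited matrices hold raw UMI counts per gene and barcode that the authors made with Cell Ranger 6.1.2 on the mm10 build, per the submitters' processing notes. The gene and barcode tables deposited beside them hold identifiers only. Each group is 1 library, LYZKL or WTKL. Barcodes were kept from 500 detected genes upward and up to 10% mitochondrial UMIs. The total was 93584629 UMIs in LYZKL and 77181312 in WTKL. The libraries share 100 barcode sequences, and cells are not replicates.

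Cells were gated on raw UMIs, with 2 T cell markers or 3 markers of another lineage. Barcodes meeting 2 or more lineage gates were left out as possible doublets (1239 in LYZKL and 1297 in WTKL). The gamma-delta gate (7 and 6 cells) and the NK gate (14 and 7) were under 50 cells and are not described. UMIs were summed per gate and scaled to CPM. Intervals at 95% are exact Poisson for levels, exact conditional binomial for ratios and Clopper-Pearson for shares. They and the limits set by a count of 0 (3 counts) cover counting error only. A fold of 1.5 or more was counted among genes holding 50 UMIs in the libraries together and 10 CPM in 1 of them. Cells were thinned to 2000 UMIs for shares. Genes like the members were ranked by Pearson correlation of log2(CPM + 1) with the mean of the members among genes with at least 30 CPM in a gate.

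The members and lists were chosen with earlier results of these data known. The text names all 10 members, up to 6 genes of each list with the most UMIs, and genes among the 10 most like the members. Results that need certain genes are not reported here, and the cell subsets and the interferon gamma list were redefined without those genes after the data had been seen. The ratios and their intervals were checked on Treg gate sums simulated with planted fold changes and counting error only. Thinning was checked on barcodes of WTKL. Gating, subsets, doublet removal, weighting, the scaling of neutrophil RNA and the ranking of genes were not simulated. Alternatives covered filters, gates, doublets, scaling, thinning and the mix of subsets. Scrublet called 435 barcodes in LYZKL and 0 in WTKL at its automatic threshold, so that alternative removed the highest scores instead, 10.8% and 9.60% of barcodes. Tools were Python 3.11.15, numpy 2.4.6, scipy 1.17.1, scanpy 1.11.5, matplotlib 3.10.9, R 4.3.3 and edgeR 4.0.16, the last for TMM factors.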

Additional observations from a re-analysis of the deposited data

Results flagged for a closer look

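CD8 cells stood apart because their counts moved opposite to those of the other gates. For the sum of the 10 genes the log2 ratio of LYZKL over WTKL was -0.35 in CD8 cells and between 0.34 and 0.73 in 5 other gates, those of Treg, conventional CD4 and B cells, neutrophils and macrophages or monocytes. Other T lineage cells were left out of this count of gates and of those below. Their sum had 0.43 (0.39 to 0.48), and all 10 members had intervals above 0 there. The counting intervals on both sides left out 0, but the difference between the gates was not tested, since each group is 1 library.

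The same held for 7 single members. Gbp2 had -0.36 in CD8 cells and 0.29 to 0.89 in 4 other gates, and Gbp5 had -0.60 and 0.34 to 0.87 in 4. Gbp3 had -0.63 in CD8 cells and 0.33 to 0.98 in 3 other gates, and Gbp7 had -0.24 and 0.25 to 1.02 in 5. Iigp1 had -0.65 in CD8 cells and 0.63 to 1.39 in 4 other gates. Among the regulatory IRGs, Igtp had -0.52 in CD8 cells and 0.31 to 0.67 in 3 other gates, and Irgm2 had -0.59 and 0.21 to 0.85 in 4. With CD8 subsets weighted as in WTKL the CD8 values were -0.24 for the sum, -0.26 for Gbp2, -0.64 for Gbp3, -0.47 for Gbp5, -0.27 for Gbp7, -0.18 for Iigp1, -0.33 for Igtp and -0.07 for Irgm2. None of these differences was tested.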

How the results depend on the processing

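Of 78 alternative values of the summed level, 57 moved by less than their counting interval, and no sum changed sign. In Treg cells the log2 ratio was 0.91 as a mean of per-cell CPM, 0.89 after thinning and 1.13 in cells free of myeloid marker UMIs. In conventional CD4 cells it was 0.64 with 1 more marker per lineage gate and 0.52 in myeloid-free cells. In CD8 cells it was -0.30 with 1 more marker, -0.46 with Scrublet removal, -0.46 with TMM scaling, -0.45 as a per-cell mean, -0.43 after thinning, -0.24 with subsets weighted as in WTKL and -0.53 in myeloid-free cells. In neutrophils it was 0.38 with 1 more marker, 0.52 as a per-cell mean and 0.52 after thinning. In macrophages or monocytes it was 0.41 with TMM, 0.41 as a per-cell mean and 0.21 with WTKL weights, and over all kept cells 0.37, 0.50 and 0.50 with TMM, per-cell means and thinning. The causes were not tested. The weighted and myeloid-free alternatives were chosen after seeing the data. Of 780 values of single members, 702 moved by less than their interval. The sign changes were those of members whose intervals held 0, given beside their values. With no filter beyond 1 UMI per library, the shares of all genes at least 1.5-fold higher and lower were 9% and 18.8% in Treg, 11.3% and 13.3% in conventional CD4, 17% and 11% in CD8, 13.4% and 12.6% in B, 11.4% and 15.2% in neutrophil and 10.6% and 13.6% in macrophage or monocyte gates, where more genes of few UMIs enter. At 30 CPM and 100 UMIs they were 1.83% and 1.81% in Treg, 1.64% and 1.04% in conventional CD4, 3.95% and 2.20% in CD8, 1.93% and 2.06% in B, 3.11% and 4% in neutrophil and 2.17% and 5.62% in macrophage or monocyte gates, with 2 members at least 1.5-fold higher in B cells and 1 in neutrophils. The gamma-delta alternatives gave no value because the gate held too few cells. No paired analysis was possible because each group is 1 library. Depth limits the B cell gate most, with 467 member UMIs in LYZKL and 339 in WTKL.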
